A study of Mus musculus with 6 samples.

Results

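Bcl6 and 7 further genes of T follicular helper cells (Cxcr5, Il6st, Il6ra, Sh2d1a, Cd200, Pou2af1 and Ascl2) were followed through 6 RNA-seq libraries of sorted mouse spleen CD4 T cells. The 8 genes were chosen by name and not by a threshold, but with earlier results of these data known. All 8 had a row among the 47729 genes of the count table. OFF cells (2 libraries) and ON cells (2 libraries) came from RBPJind mice, in which Rbpj, the DNA-binding protein that carries Notch signals to genes, is induced by doxycycline (Dox). OFF mice drank Dox for 3 weeks and then went 1 week without it, ON mice drank it for 4 weeks, and both were sorted as immature naive cells (CD3+CD4+CD25-CD45RBint). WT cells (2 libraries) were mature naive T cells from wild type spleens, in the gate CD3+CD4+CD25-CD45RBhi. The treatment label of WT is also Dox, with no duration. The labels give no ages, nor the promoter and cell type behind the induction. OFF and ON therefore differ in Dox itself as well as in Notch responsiveness, and both differ from WT in genotype, gate and maturity, which cannot be told apart. Nothing says that replicates were separate animals, so p-values measure the spread between these samples, which may be technical.

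T follicular helper cells are CD4 T cells that enter B cell follicles and help B cells make antibody. Bcl6, a transcriptional repressor, is required for their formation, and the receptor Cxcr5 lets them follow the chemokine Cxcl13 into the follicle. IL-6, which signals through Il6ra and Il6st to the transcription factor Stat3, is one of the signals known to raise Bcl6 in activated CD4 T cells. Naive CD4 T cells hold little Bcl6 and Cxcr5.

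Genes took 17025551 to 19319183 counts per library. Levels are CPM, each gene's count relative to its library's total, with the totals scaled by edgeR's trimmed mean of M values (TMM). Of the 8 genes 7 passed the filter on low counts, each with 83 to 9332 counts in every library, so none passed through 1 group alone. Ascl2 did not pass. The quasi-likelihood test of edgeR was run over all 15780 genes that passed, and an adjusted p (Benjamini-Hochberg) under 0.05 is a call. As a check of the labels, Rbpj was counted at 29.8 and 31.7 CPM in OFF and at 98.2 and 79.6 CPM in ON, against 36.1 and 35.3 CPM in WT. The Notch target Dtx1 was at 195 and 145 CPM in OFF and 492 and 562 CPM in ON, against 198 and 198 CPM in WT. Cd4 was at 604 to 702 CPM and Cd3e, a chain of the T cell receptor complex, at 307 to 427 CPM over the 6 libraries, as the sort would have it. Of 12 CD4 T cell markers edgeR called 0 in OFF against ON and 1 higher in OFF against WT. In ON against WT it called 2 higher and 1 lower. Of all tested genes 1.03%, 6.83% and 14.8% were called in these comparisons. Both OFF libraries lay above both ON libraries for 3 of the 12 and below them for 4, beside 23.4% and 23.3% of all tested genes. A bulk library cannot tell more cells of a type from more RNA per cell.

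Bcl6 (ENSMUSG00000022508; GRCm38 chr16:23965052-23988852, minus strand) was high in OFF. It was counted at 43.5 and 49.5 CPM in OFF and at 25.0 and 16.9 CPM in ON, against 20.9 and 22.6 CPM in WT. Both OFF libraries lay above the other 4, and the ON and WT libraries overlapped. Bcl6 rose 2.21-fold in OFF over ON (log2 fold change 1.15 ± 0.18, SE; edgeR adjusted p = 0.0263). It rose 2.14-fold in OFF over WT (log2 fold change 1.10 ± 0.19; edgeR adjusted p = 0.00943). Between ON and WT the log2 fold change was -0.05 ± 0.19 (95% interval -0.47 to 0.37; edgeR adjusted p = 0.889). The call of OFF against ON was lost without OFF 2 (adjusted p = 0.0624), without WT 2 (0.0592) and with only the 4 libraries of the comparison (0.0693), with log2 fold changes of 1.03, 1.16 and 1.13. The call of OFF against WT was lost without WT 1 (0.0969) or WT 2 (0.0648).

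RefSeq (GRCm38.p6) lists 2 starts of Bcl6, and the 250 bases before each are shown because they hold the STAT letters TTCNNNGAA, the kind of site that Stat3 and, as is known, Bcl6 protein itself can bind. Capitals mark the matches. The first window is chr16:23988853-23989102 and the second, inside the annotated gene, chr16:23981284-23981533, both on the minus strand and printed 5′ to 3′.
Bcl6 first start: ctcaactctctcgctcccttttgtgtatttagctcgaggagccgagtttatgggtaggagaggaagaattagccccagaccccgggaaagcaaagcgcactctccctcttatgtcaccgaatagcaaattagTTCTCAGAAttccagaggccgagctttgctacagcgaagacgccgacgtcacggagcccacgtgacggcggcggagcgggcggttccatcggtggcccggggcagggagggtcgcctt
Bcl6 second start: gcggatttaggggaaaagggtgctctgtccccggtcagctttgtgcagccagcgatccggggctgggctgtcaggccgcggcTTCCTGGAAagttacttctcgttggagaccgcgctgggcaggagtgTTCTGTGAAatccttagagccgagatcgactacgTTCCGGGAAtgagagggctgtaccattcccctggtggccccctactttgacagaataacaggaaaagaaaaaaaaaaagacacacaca
In the full windows of 300 bases (250 before the start and 50 after it) the first held 1 STAT match and the second held 3. Among all 32851 RefSeq promoter windows of that length 8.30% held at least 1, and 11 windows (0.0335%) held 3 or more. Such letters are a description of the sequence and show no binding in these cells.

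**Figure D1:**
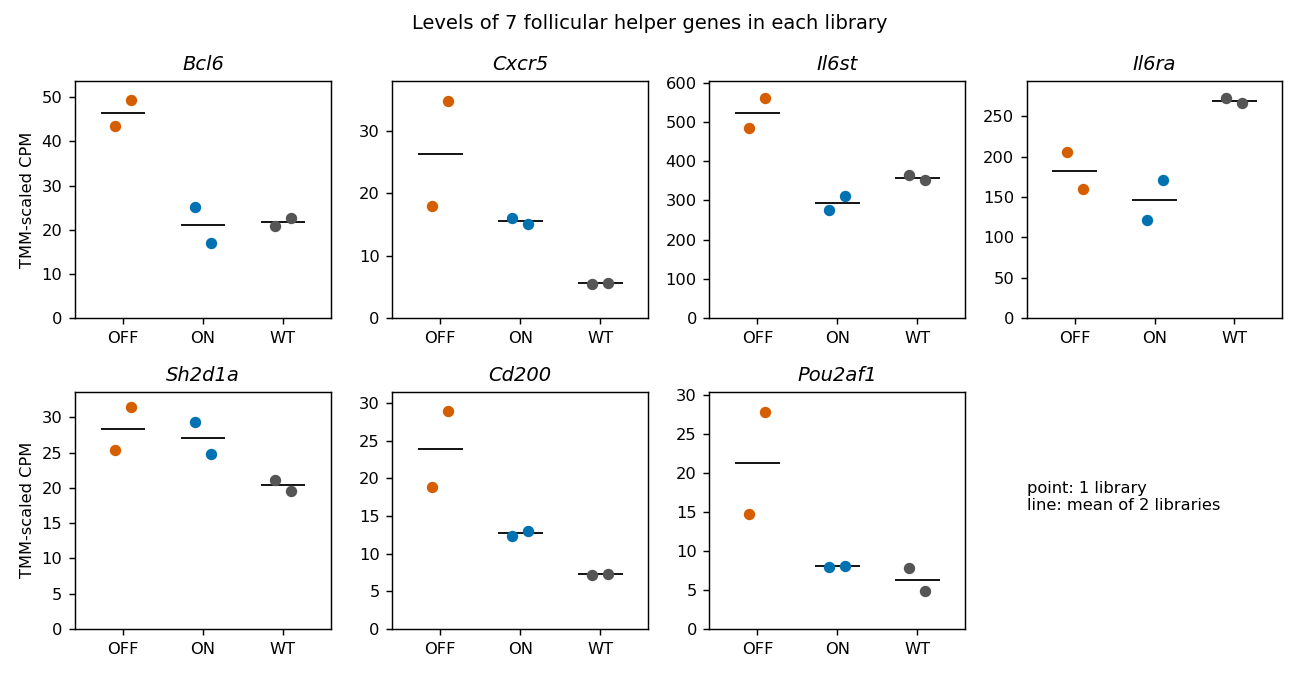
Level of each of the 7 tested genes (TMM-scaled CPM, linear axes from 0) in the 2 libraries of OFF, ON and WT; points are libraries and lines are means of 2. Both OFF points of Bcl6 (43.5 and 49.5 CPM) and of Il6st lie above the other 4 libraries, while both WT points of Il6ra lie above the other 4.

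Ascl2, a basic helix-loop-helix factor known to start the follicular helper programme ahead of Bcl6 in mice, had 0 counts in all 6 libraries (ENSMUSG00000009248; chr7:142966829-142969264, minus strand). A count of 0 allows up to 3 counts in a library, or 0.149 to 0.180 CPM. The rise of Bcl6 in OFF thus stood beside no detectable Ascl2 at this depth.

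Pou2af1 (OCA-B; ENSMUSG00000032053; chr9:51213708-51240080, plus strand), a coactivator of the octamer factors Pou2f1 and Pou2f2 that is best known from B cells, had its highest 2 values in OFF. It was counted at 14.8 and 27.8 CPM in OFF and at 7.97 and 8.13 CPM in ON, against 7.78 and 4.83 CPM in WT. The OFF libraries did not overlap with any other library, but they differed from each other by 0.89 on the log2 scale. Pou2af1 rose 3.38-fold in OFF over WT (log2 fold change 1.76 ± 0.32; edgeR adjusted p = 0.0148), a call lost without WT 2 (0.0976). In OFF over ON its log2 fold change of 1.40 ± 0.31 was not called (edgeR adjusted p = 0.0697), although it was without OFF 1 (log2 fold change 1.80, adjusted p = 0.0104) and with DESeq2 (0.00182). In ON over WT the log2 fold change was 0.36 ± 0.34 (edgeR adjusted p = 0.524).

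Cxcr5, the follicle homing receptor (ENSMUSG00000047880; chr9:44511787-44561877, minus strand), stepped up over the groups. It was counted at 18.0 and 34.7 CPM in OFF and at 16.0 and 15.1 CPM in ON, against 5.50 and 5.70 CPM in WT. All 4 RBPJind libraries lay above both WT libraries, and OFF 1 lay close to ON. Cxcr5 rose 4.69-fold in OFF over WT (log2 fold change 2.23 ± 0.30; edgeR adjusted p = 0.00312), and this call was kept with each library left out (adjusted p up to 0.0367). It rose 2.78-fold in ON over WT (log2 fold change 1.47 ± 0.30; edgeR adjusted p = 0.0132), a call lost without ON 1 (0.0567), ON 2 (0.0623), WT 1 (0.0985) or WT 2 (0.101). In OFF over ON the log2 fold change of 0.75 ± 0.26 was not called (95% interval 0.16 to 1.35; edgeR adjusted p = 0.169). It was 1.17 without OFF 1 (adjusted p = 0.0232) and 0.19 without OFF 2 (0.707), so its size turned on which OFF library was used.

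Cd200 (ENSMUSG00000022661; chr16:45382135-45409053, minus strand) encodes a surface ligand of the inhibitory receptor Cd200r1 and is a marker of follicular helper cells. It had the same order of groups as Cxcr5. It was counted at 18.9 and 28.9 CPM in OFF and at 12.4 and 13.0 CPM in ON, against 7.18 and 7.33 CPM in WT, and no 2 groups overlapped. Cd200 rose 3.29-fold in OFF over WT (log2 fold change 1.72 ± 0.22; edgeR adjusted p = 0.00261), a call kept with each library left out (adjusted p up to 0.0357). It rose 1.75-fold in ON over WT (log2 fold change 0.81 ± 0.23; edgeR adjusted p = 0.0446), a call lost without ON 1 (0.0724), ON 2 (0.104), WT 1 (0.207) or WT 2 (0.205), with upper quartile scaling (0.0583), with no filter on low counts (0.0585) and with limma-voom (0.0770). In OFF over ON the log2 fold change was 0.91 ± 0.21, not called (edgeR adjusted p = 0.0709). Without OFF 1 that difference was called (log2 fold change 1.20, adjusted p = 0.0241), and without OFF 2 it was 0.56 (0.256).

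The window before the start of Cd200 (chr16:45409054-45409303, minus strand) and that of Il6ra (chr3:89913197-89913446, minus strand) are shown because they alone, of the 7 windows found for 6 of the 8 genes, held the letters TGGGAA, the core that Rbpj is known to bind. Capitals mark the matches on either strand (TGGGAA or TTCCCA).
Cd200: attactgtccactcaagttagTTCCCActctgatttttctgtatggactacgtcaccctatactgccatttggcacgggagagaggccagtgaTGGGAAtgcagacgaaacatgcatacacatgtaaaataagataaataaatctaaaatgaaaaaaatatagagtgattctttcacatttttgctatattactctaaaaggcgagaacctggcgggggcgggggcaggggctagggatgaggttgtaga
Il6ra: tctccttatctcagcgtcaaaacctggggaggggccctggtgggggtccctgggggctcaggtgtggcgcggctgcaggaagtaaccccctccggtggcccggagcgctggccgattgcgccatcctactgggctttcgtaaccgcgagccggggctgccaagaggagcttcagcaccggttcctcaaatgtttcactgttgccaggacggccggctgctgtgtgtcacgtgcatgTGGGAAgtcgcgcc
Cd200 held 2 matches and Il6ra held 1, which shares 2 bases with an E-box (CANNTG). At least 1 match stood in 25.6% of all windows and at least 2 in 3.79%, so 1 match is common and 2 matches are less so. The octamer ATGCAAAT, the site of the partners of Pou2af1, stood in none of the 7 windows and in 1.74% of all, and CANNTG stood in 6 of the 7 and in 72.3% of all.

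The 2 chains of the IL-6 receptor differed in the order of the groups. Il6st (gp130; ENSMUSG00000021756; chr13:112464070-112510086, plus strand), the signalling chain that IL-6 shares with other cytokines of its family, was counted at 483 and 561 CPM in OFF and at 275 and 311 CPM in ON, against 364 and 351 CPM in WT. OFF lay above WT and WT above ON, with no overlap. Il6st rose 1.78-fold in OFF over ON (log2 fold change 0.83 ± 0.13; edgeR adjusted p = 0.0204) and 1.46-fold in OFF over WT (log2 fold change 0.55 ± 0.13; edgeR adjusted p = 0.0340). In ON over WT its log2 fold change was -0.29 ± 0.13 (edgeR adjusted p = 0.158). The call of OFF against ON was lost without OFF 2 (0.0613), WT 1 (0.0537) or WT 2 (0.0647) and with only the 4 libraries of the comparison (0.0835). That of OFF against WT was lost without OFF 2 (0.226), WT 1 (0.217) or WT 2 (0.171), with genes kept from a mean of 1 CPM (0.0558) and with upper quartile scaling (0.0601).

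Il6ra (ENSMUSG00000027947; chr3:89864059-89913196, minus strand), the chain that binds IL-6, was counted at 205 and 159.7 CPM in OFF and at 121 and 171 CPM in ON, against 272 and 266 CPM in WT. Both RBPJind groups lay below WT, and OFF and ON overlapped. Il6ra fell in ON to 1.84-fold below WT (log2 fold change -0.88 ± 0.18; edgeR adjusted p = 0.0119), a call lost without WT 1 (0.0822) or WT 2 (0.0977). In OFF against WT the log2 fold change of -0.56 ± 0.18 was not called (edgeR adjusted p = 0.0949), but it was without ON 1 (0.0327), without ON 2 (0.0215), with DESeq2 (0.0250) and with only the 4 libraries of the comparison (0.0290). In OFF over ON it was 0.32 ± 0.18 (95% interval -0.08 to 0.72; edgeR adjusted p = 0.357). Per length of exon, the level of Il6ra was 0.546 and 0.366 of that of Il6st in OFF and 0.566 and 0.708 of it in ON, against 0.960 and 0.972 of it in WT. On this scale of RNA per length of exon, Il6ra was thus near Il6st in WT and below it in the 4 RBPJind libraries. In plain CPM its mean was below that of Il6st in WT as well (269 against 357 CPM).

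Sh2d1a (SAP; ENSMUSG00000005696; chrX:42502453-42529330, plus strand), the adaptor through which SLAM receptors hold helper T cells and B cells together, changed least of the 7 between OFF and ON. It was counted at 25.3 and 31.4 CPM in OFF and at 29.3 and 24.7 CPM in ON, against 21.2 and 19.5 CPM in WT. OFF and ON overlapped, and all 4 lay above WT. The log2 fold change was 0.07 ± 0.16 in OFF over ON (95% interval -0.29 to 0.43; edgeR adjusted p = 0.852), 0.41 ± 0.16 in ON over WT (edgeR adjusted p = 0.124) and 0.48 ± 0.16 in OFF over WT (edgeR adjusted p = 0.120). None of these was called, and the sign of the first turned without OFF 2 or ON 2. Strand use in counting is not stated, and exons of Sh2d1a share 1465 bases with the opposite-strand gene Tenm1, which had at most 1.38 CPM. Exons of Bcl6 share 21 bases with the opposite-strand gene Gm37419, which had no row in the count table. Exons of Cxcr5 share 110 bases with Bcl9l, at 168 and 115 CPM in OFF and 118 and 167 CPM in ON, against 166 and 168 CPM in WT. Exons of Il6ra share 242 bases with Gm42809, which had at most 4.31 CPM. The part of such overlaps in the counts was not tested.

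Set side by side, 2 of the 7 tested genes rose in OFF relative to ON (Bcl6 and Il6st) and 0 fell, where 0.602% of all tested genes rose and 0.425% fell (1.03% in either direction). The OFF libraries lay wholly above ON for 5 of the 7 and wholly below for 0, against 23.4% and 23.3% of all tested genes (46.7% either way). The median log2 fold change of the 7 was 0.83, against 0.00 for all tested genes. In ON over WT, 2 were called higher (Cxcr5 and Cd200) and 1 lower (Il6ra), where 9.68% of genes were called higher and 5.16% lower (14.8% in all). ON and WT did not overlap for 6 of the 7, against 59.9% of all tested genes, and the median was 0.36 against -0.02. In OFF over WT, 5 were called higher (Bcl6, Cxcr5, Il6st, Cd200 and Pou2af1), where 4.70% of genes were (6.83% in either direction). OFF and WT did not overlap for any of the 7, against 55.7% of all tested genes, and the median was 1.10 against 0.01. These comparisons share libraries, and the list was chosen with earlier results of these data known, so the counts describe it and do not set it apart from other lists.

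**Figure D2:**
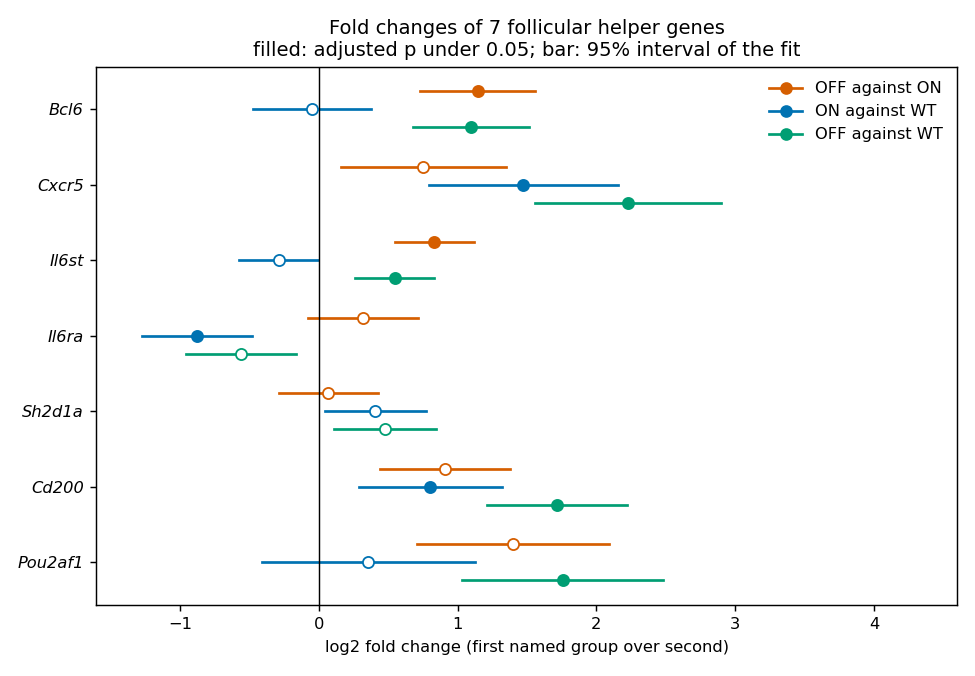
Log2 fold changes of the 7 tested genes in the 3 comparisons, with 95% intervals from the edgeR fit; filled points have an adjusted p under 0.05. Bcl6 and Il6st are filled for OFF against ON, and Il6ra lies at -0.88 for ON against WT.

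**Figure D3:**
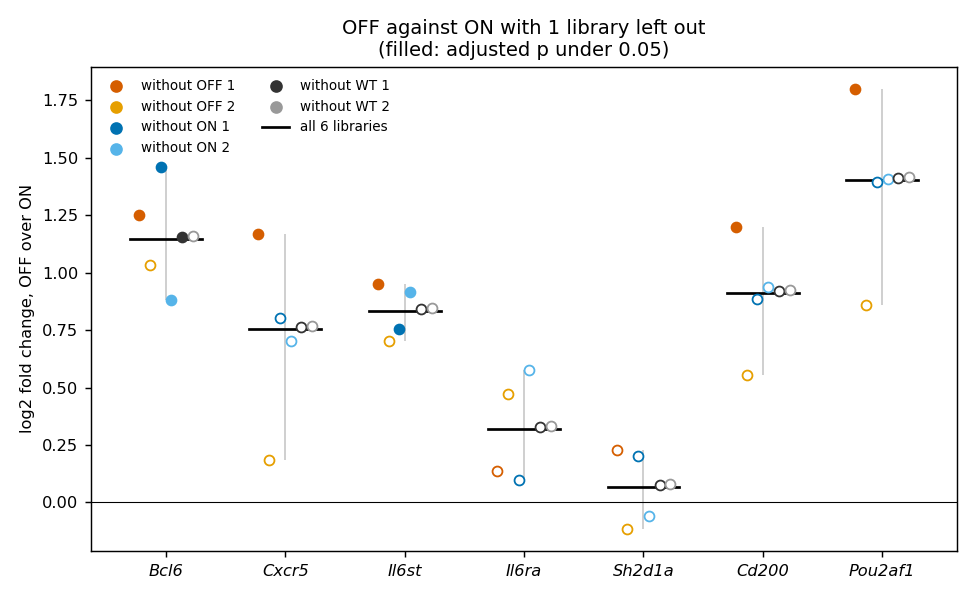
Log2 fold change of OFF over ON for the 7 tested genes with each library left out in turn (points, filled where the adjusted p was under 0.05) and with all 6 libraries (bars). Cxcr5 lies at 1.17 without OFF 1 and at 0.19 without OFF 2, while Bcl6 lies between 0.88 and 1.46.

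The order of the genes among themselves also differed between groups, on the scale of CPM per kilobase of exon. Il6st and Il6ra led in each group, at 47.0 ± 4.93 and 21.1 ± 3.75 in OFF and 26.4 ± 2.26 and 16.9 ± 4.09 in ON, against 32.2 ± 0.795 and 31.1 ± 0.488 in WT (SD, n = 2). The other 5 genes lay between 5.15 (Sh2d1a) and 8.36 (Pou2af1) in OFF and between 3.13 (Bcl6) and 4.91 (Sh2d1a) in ON, against 1.68 (Cxcr5) and 3.70 (Sh2d1a) in WT. Cxcr5 was the lowest of the 7 in WT at 1.68 ± 0.0414, while in OFF it stood at 7.90 ± 3.55, within the SD of Pou2af1 (8.36 ± 3.62) and Cd200 (7.20 ± 2.13).

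Of the genes outside the list, those whose pattern over the 6 libraries was most like that of Bcl6 were Kctd12, Fosb, Pla2g12a, Fos and Gch1. Likeness was the root mean square difference of log2(CPM + 0.5), centred on each gene's own mean, over 6 libraries and 8736 named protein-coding candidates. It was 0.11 for Kctd12, 0.15 for Fosb, 0.19 for Pla2g12a, 0.22 for Fos and 0.25 for Gch1, against a median of 0.57. Fosb and Fos are AP-1 transcription factor genes that respond within minutes to receptor signals and to cell handling. Fosb was at 36.3 ± 4.10 CPM in OFF and 13.9 ± 1.76 CPM in ON, against 17.1 ± 3.20 CPM in WT (SD, n = 2). Kctd12 was at 23.0 ± 2.39 CPM in OFF and 10.5 ± 1.79 CPM in ON, against 9.61 ± 0.276 CPM in WT. Within the list Il6st came nearest to Bcl6, at rank 30 (0.31), followed by Cd200 at rank 316 (0.41) and Pou2af1 at rank 389 (0.42), while Cxcr5 stood at rank 6920 (0.66) and Il6ra at rank 7993 (0.75).

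Other cell types express some of these genes: B cells hold Pou2af1, Cxcr5 and Bcl6, and regulatory T cells can hold Cd200 and, as follicular regulatory cells, Cxcr5 and Bcl6. The 24 B cell markers summed to 622 and 766 CPM in OFF and to 662 and 552 CPM in ON, against 289.8 and 257 CPM in WT. Most of this sum lay in Ighm, the IgM heavy chain, and the class II genes Cd74, H2-Aa, H2-Ab1 and H2-Eb1. Ighm was at 179 and 206 CPM in OFF and 139.99 and 125 CPM in ON, against 194 and 177 CPM in WT. Both OFF libraries lay above both ON libraries (log2 fold change 0.54, edgeR adjusted p = 0.0756, not called), and OFF overlapped with WT. Ighm was the 1 marker called lower in ON than in WT (edgeR adjusted p = 0.0320). Defining B cell genes were at a few CPM. Ms4a1 (CD20) was at 4.04 and 8.41 CPM in OFF and 4.40 and 2.13 CPM in ON, against 0.778 and 0.814 CPM in WT, and Cd79a of the B cell receptor at 3.35 and 5.71, 2.04 and 2.28, and 1.196 and 0.814 CPM in OFF, ON and WT. Before adjustment, the edgeR p was under 0.05 for 19.1% of all tested genes in OFF against ON. Of 23 B cell markers tested, edgeR called 18 higher in OFF against WT and 11 higher and 1 lower for ON against WT. It called 0 of the B cell markers in OFF against ON (13 at an unadjusted p under 0.05). Their log2 fold changes in OFF over ON were above 0 for 19 of the 23, with a median of 0.82, beside 0.83 for the 7 follicular helper genes, and both OFF libraries lay above both ON libraries for 12 of the 24 and below them for 1. Of the 24, Vpreb3 alone was at 0 in a library (ON 2).

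The 9 regulatory T cell markers summed to 296 and 525 CPM in OFF and to 329 and 250.01 CPM in ON, against 65.9 and 55.6 CPM in WT. Foxp3, which defines these cells, was at 36.6 and 78.7 CPM in OFF and 38.03 and 30.8 CPM in ON, against 2.45 and 2.67 CPM in WT. Il2ra, which encodes the CD25 that the gate left out, was at 25.3 and 28.8 CPM in OFF and 27.7 and 24.9 CPM in ON, against 4.19 and 4.65 CPM in WT. All 9 were called higher in ON than in WT and 8 in OFF than in WT. In OFF against ON edgeR called 0 (4 at an unadjusted p under 0.05, beside 19.1% of all tested genes). OFF 2 was above OFF 1 in Cxcr5, Cd200 and Pou2af1 and likewise in Cd79a, Ms4a1, Foxp3 and Ikzf2, a regulatory T cell factor (219 against 107 CPM). Bcl6 and Il6st differed less between these libraries, at 49.5 against 43.5 and 561 against 483 CPM. So did some markers of the same lists, such as Il2ra (28.8 against 25.3 CPM), Ikzf4 (20.1 against 18.3 CPM) and Ebf1 (2.88 against 2.54 CPM). All 9 regulatory T cell markers were higher in OFF 2 than in OFF 1, among them Itgae (34.9 against 11.6 CPM) and Nrp1 (54.4 against 33.3 CPM). Of the B cell markers Cd72 alone was lower in OFF 2 (11.5 against 13.2 CPM). The part of B cells and regulatory T cells in the levels of the follicular helper genes was not tested.

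**Figure D4:**
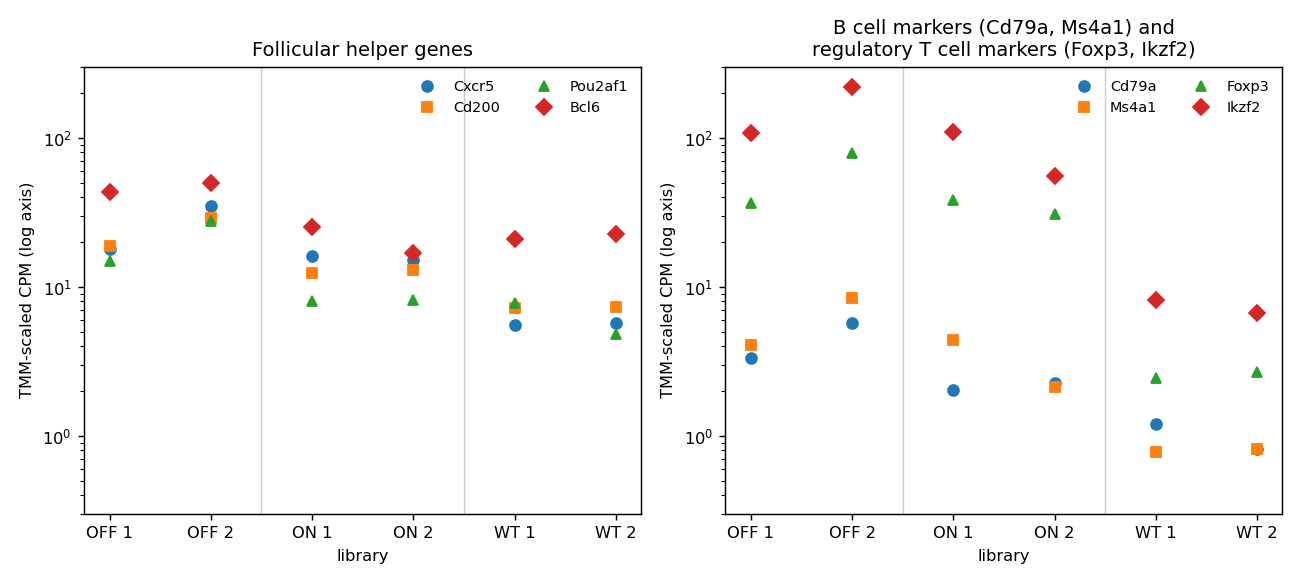
Levels (TMM-scaled CPM, log axis) in each library of 4 follicular helper genes (left) and of markers of B cells and regulatory T cells (right). OFF 2 is above OFF 1 for every gene drawn, and Foxp3 is at most 2.67 CPM in WT.

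Markers of cytotoxic and myeloid cells were also present. The 15 myeloid and dendritic markers summed to 115 and 129 CPM in OFF and 91.5 and 102 CPM in ON, against 39.7 and 33.5 CPM in WT, and Lyz2 was at 6.28 to 25.8 CPM over the 6 libraries, the most abundant gene, Cst3, at 12.3 to 30.002 CPM, and Cd14, S100a9 and Xcr1 were each at 0 in at least 2 of them. Of 12 tested, 6 were called higher in ON and 5 in OFF than in WT. In OFF against ON edgeR called 0 (3 at an unadjusted p under 0.05, beside 19.1% of all tested genes). Both OFF libraries lay above both ON libraries for 4 of the 15 and below them for 3. Mpeg1, among the former, was at 33.5 and 36.7 CPM in OFF and 7.87 and 17.8 CPM in ON, against 2.69 and 2.44 CPM in WT. Itgax, among the latter, was at 9.19 and 9.61 CPM in OFF and 18.8 and 16.2 CPM in ON, against 2.99 and 2.03 CPM in WT. The 12 CD8 T and NK markers summed to 131 and 237 CPM in OFF and 484 and 233 CPM in ON, against 55.4 and 41.3 CPM in WT, and Cd8a was at 0.419 to 5.85 CPM. Gzmb (granzyme B), the most abundant of them, was at 29.9 and 94.6 CPM in OFF and 226 and 77.7 CPM in ON, against 1.44 and 0.756 CPM in WT. Of the 12, 6 were called higher in ON and 5 in OFF than in WT, and Gzmk (granzyme K) fell in OFF to 3.70 and 6.79 CPM, against 40.9 and 19.7 CPM in ON (edgeR adjusted p = 0.0370). The part of these cells in the levels of the follicular helper genes was not tested. The 7 plasma cell markers summed to 27.5 to 40.6 CPM, mostly Xbp1, and the 9 red cell and platelet markers to 4.09 to 5.38 CPM, mostly Itga2b, and the summed level of neither list separated the groups by more than 1.5 times. Of 4 plasma cell markers tested, edgeR called 1 higher in ON than in WT. It called 0 in OFF against WT (2 at an unadjusted p under 0.05, beside 22.1% of all tested genes) and 0 in OFF against ON. Jchain, at 1 to 46 counts, was at 1.56 and 0.661 CPM in OFF and 2.35 and 1.24 CPM in ON, against 0.0598 and 0.174 CPM in WT. The part of plasma cells was not tested.

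The rest of the pathway was followed in 8 lists by role, 84 genes found in the table of which 83 were tested (all but Il4). The lists were chosen with earlier results of these data known. Counts of calls in them, here and against WT below, therefore describe the lists and do not set them apart from other lists. In OFF against ON, 5 of the 83 were called (6.02%), 1 higher and 4 lower, beside 1.03% of all tested genes (0.602% higher and 0.425% lower). Foxo1, which restrains follicular helper fate in mice and keeps naive cells quiescent, rose 1.83-fold in OFF, with 344 and 348 CPM in OFF against 189.8 and 189.4 CPM in ON (edgeR adjusted p = 0.00866), and the call was kept with each library left out. The 4 that fell were Il21, Il10, Maf and Tnfrsf4. Il21, the main cytokine of follicular helper cells, was at 1.16 and 2.40 CPM in OFF and 10.1 and 7.04 CPM in ON, a log2 fold change of -2.27 (edgeR adjusted p = 0.0251, lost without OFF 1 at 0.0918 and with only the 4 libraries of the comparison at 0.0547). Il10 fell to 1.68 and 2.46 CPM in OFF, against 14.3 and 9.86 CPM in ON (edgeR adjusted p = 0.00640, kept with each library left out). Maf, a factor that drives both cytokines, was at 29.1 and 43.0 CPM in OFF and 90.8 and 74.7 CPM in ON (edgeR adjusted p = 0.0210, lost without OFF 1 or WT 2, up to 0.0579, and with the 4 libraries at 0.0547). Tnfrsf4 (OX40), a costimulatory receptor, was at 18.4 and 20.7 CPM in OFF and 41.3 and 35.1 CPM in ON (edgeR adjusted p = 0.0219, lost without OFF 1, WT 1 or WT 2, up to 0.108, and with the 4 libraries at 0.0631). The groups did not overlap for any of these 5 genes. Higher Bcl6 and Il6st in OFF therefore stood beside lower Il21, Il10 and Maf, and beside the lower Gzmk given above, whose cells' part was not tested.

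The remaining lists of OFF against ON gave few calls. Before adjustment, the edgeR p was under 0.05 for 19.1% of all tested genes in this comparison. Of the 13 genes that Bcl6 is known to repress in helper T cells, edgeR called 0 (2 with DESeq2, 0 with limma-voom, and 5 at p under 0.05 before adjustment), with a median log2 fold change of 0.10. Among them Prdm1 (Blimp1), the antagonist of Bcl6, was at 11.4 and 18.0 CPM in OFF and 36.1 and 20.9 CPM in ON (log2 fold change -0.96, edgeR adjusted p = 0.127), Klf2, a factor of naive T cell traffic, had a log2 fold change of 0.54 (edgeR adjusted p = 0.0697), and the sphingosine phosphate receptor gene S1pr1 one of 0.39 (0.135). Of the 8 Bcl6 corepressors edgeR called 0 (0 with DESeq2, 0 with limma-voom, and 0 at p under 0.05 before adjustment), and their median was -0.01. Of the 19 genes of IL-6, IL-21 and IL-2 receptor signalling edgeR called 0 (2 with DESeq2, 0 with limma-voom, and 8 at p under 0.05 before adjustment), with Stat3 at 235 and 227 CPM in OFF and 247 and 228 CPM in ON. Lifr, a further partner of Il6st, had the smallest p of them, at 7.22 and 6.61 CPM in OFF and 1.43 and 3.52 CPM in ON (edgeR adjusted p = 0.0818). Socs3, an inhibitor of gp130 signalling, was at 153 and 112 CPM in OFF and 236 and 208 CPM in ON (edgeR adjusted p = 0.137). Of the 11 SLAM and SAP genes edgeR called 0 (0 with DESeq2, 0 with limma-voom, and 1 at p under 0.05 before adjustment), and of the 6 POU and E protein genes 0 (0 with DESeq2, 0 with limma-voom, and 4 at p under 0.05 before adjustment). Of the 14 other surface molecules, Tnfrsf4 alone was called, and 9 had a log2 fold change above 0 (median 0.14). Cxcr4 had the smallest p of those not called (log2 fold change 0.71, edgeR adjusted p = 0.0586). Pdcd1 (PD-1) was at 21.7 and 30.5 CPM in OFF and 36.5 and 37.4 CPM in ON (edgeR adjusted p = 0.169). Icos, the costimulator that follicular helper cells need, was at 32.1 and 61.9 CPM in OFF and 33.1 and 30.3 CPM in ON (edgeR adjusted p = 0.319).

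Against WT, many of the same pathway genes were called in ON. Of the 83, 28 rose and 8 fell in ON relative to WT, beside 9.68% and 5.16% of all tested genes, and 16 of these 36 calls were kept with each library left out. Those kept included Pdcd1 (36.5 and 37.4 CPM in ON, against 2.75 and 3.37 CPM in WT; 12.0-fold), Maf (log2 fold change 2.91), Irf4 and Batf, which act upstream of Bcl6 (4.31-fold, and log2 fold change 1.10), and Prdm1 (5.33-fold). Among Bcl6-repressed genes Runx2 rose in ON (log2 fold change 3.39) and Il7r, the IL-7 receptor chain, fell by 1.23 on the log2 scale, both kept with each library left out. The IL-2 receptor genes Il2ra and Il2rb rose (5.93-fold and 9.62-fold), and the receptor gene Cxcr4 fell to 17.9 and 17.8 CPM in ON, against 59.7 and 52.1 CPM in WT. Il21 was at 10.1 and 7.04 CPM in ON, against 0.419 and 0.698 CPM in WT (edgeR adjusted p = 8.89e-04). Foxo1 (-0.71), Foxp1 (-0.72) and Bach2 (-0.75) fell on the log2 scale in ON, calls lost without WT 1 or WT 2 (up to 0.114). The corepressor list again had 0 calls by edgeR (0 with DESeq2, 0 with limma-voom, and 1 at p under 0.05 before adjustment). Over all tested genes 30.5% had an edgeR p under 0.05 before adjustment.

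In OFF against WT, 22 of the 83 were called higher and 3 lower, beside 4.70% and 2.14% of all tested genes, of which 10 calls were kept with each library left out: Irf4, Maf, Tox, Runx2, Il2ra, Il2rb, Il12rb1, Pdcd1, Tnfrsf4 and Izumo1r. Runx2 was at 22.6 and 33.4 CPM in OFF, against 1.67 and 1.80 CPM in WT. Pdcd1 was at 21.7 and 30.5 CPM in OFF, against 2.75 and 3.37 CPM in WT (8.48-fold, edgeR adjusted p = 1.73e-04). Tox, a factor of follicular helper and of chronically stimulated T cells, was at 119 and 172 CPM in OFF, against 59.2 and 58.2 CPM in WT (edgeR adjusted p = 0.00338). Lifr rose in OFF to 7.22 and 6.61 CPM, against 1.14 and 0.814 CPM in WT (edgeR adjusted p = 0.00617, lost without WT 2 at 0.0662). The 3 lower genes were Il7r, Cxcr4 and Osmr, of which Osmr lost its call without any 1 of the 6 libraries (adjusted p up to 0.331) and Il7r and Cxcr4 lost theirs without WT 1 (0.104 and 0.0950). Foxo1, at 344 and 348 CPM in OFF against 317 and 302 CPM in WT, was not called (edgeR adjusted p = 0.447). The corepressor list had 0 calls by edgeR (0 with DESeq2, 0 with limma-voom, and 0 at p under 0.05 before adjustment). Over all tested genes 22.1% had an edgeR p under 0.05 before adjustment. In each comparison with WT the B cell, regulatory T cell, myeloid and CD8 T and NK markers given above moved as well, as did Jchain of the plasma cell markers. The part of these cells in these calls was not tested.

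**Figure D5:**
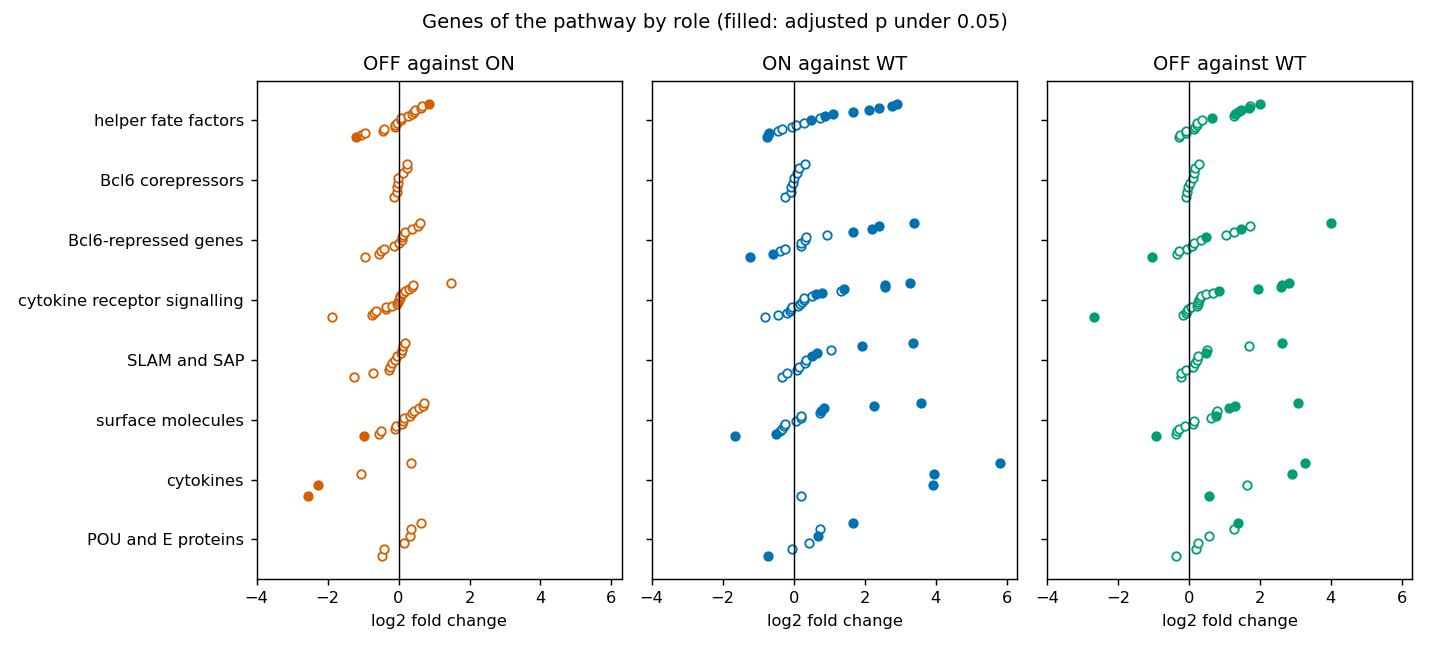
Log2 fold changes of the tested pathway genes in 8 lists by role (rows) for the 3 comparisons (columns); each point is 1 gene, filled where the adjusted p was under 0.05, and a gene may stand in more than 1 list. In OFF against ON the filled points are Foxo1 on the right and Maf, Tnfrsf4, Il21 and Il10 on the left, while 36 of 83 genes are filled in ON against WT.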

How the data were processed

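Per the labels, total RNA was sequenced on an Illumina NovaSeq instrument and aligned to GRCm38; R (3.6.2) and edgeR stand in the submitters' processing notes. Which aligner, counter, strand setting and annotation were used is not given in the sources. The table the authors deposited holds raw counts per gene for 6 libraries (OFF, ON and WT, 2 each), not normalized. Its 5 summary rows (53.1% to 66.3% of each column) stayed out of library sizes and tests. Identifiers were named from GENCODE mouse release 21 (47310 of 47729 matched).

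Genes were filtered with filterByExpr (minimum count 10, total 15), scaled by TMM and tested with edgeR 4.0.16 (quasi-likelihood, robust, R 4.3.3) in 1 fit of all 6 libraries with 3 residual degrees of freedom, adjusted by Benjamini-Hochberg over 15780 genes. Intervals on 0 counts cover counting error only. Alternatives used DESeq2 1.42.0, limma 3.58.1, other scalings and filters, protein-coding genes alone, the 4 libraries of a comparison, a replicate block and each library left out. The steps were tested on simulated counts. Replicates differed by more than sampling noise (chi-square per degree of freedom 20.2 in OFF, 70.6 in ON, 10.1 in WT).

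The 8 genes, the lists by role and the marker lists were chosen with earlier results of these data known. Named beside the 8 were genes of the role lists that were called, or otherwise up to 3 of smallest p. The choices of Stat3, Socs3, Pdcd1, Icos and Cxcr4 in OFF against ON, and of examples in the comparisons with WT, were made after values were seen. Of markers, the most abundant and defining genes were named. After values were seen, Il2ra, Ikzf2, Itgae, Nrp1, Gzmk, Mpeg1, Itgax, Ebf1, Ikzf4, Cd72, Jchain, the class II genes and those at 0 were added. So were the 5 genes most like Bcl6. Promoter sequence is from RefSeq (GRCm38.p6), with windows for 6 of the 8 genes, cut to the 250 bases before each start for printing.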

Additional observations from a re-analysis of the deposited data

How the results depend on the processing

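Each of the 7 tested genes was refitted under 16 other settings per comparison. Directions held in all of them except for Sh2d1a in OFF over ON, with log2 fold changes of -0.11 without OFF 2 and -0.06 without ON 2, and Bcl6 in ON over WT, at 0.0011 with no filter and between -0.34 (without ON 1) and 0.23 (without ON 2) with a library left out, with 0.03 without WT 2; none of these was called. The number of the 7 called in OFF against ON was 2, and became 4 with DESeq2, 0 with only the 4 libraries of the comparison and 0 to 5 with a library left out. In ON against WT it was 3 (0 to 3 with a library left out) and in OFF against WT 5 (2 to 6). Over all genes, 162 were called in OFF against ON, 497 with DESeq2, 58 with only the 4 libraries, 58 with protein-coding genes only and 67 to 619 with a library left out. In ON against WT 2342 were called (368 to 2398 with a library left out), and in OFF against WT 1078 (584 with limma-voom and 223 to 1601 with a library left out). Fits with fewer libraries or genes test other sets; for the rest the cause was not tested. The median log2 fold change over all genes shifted by no more than 0.08 with another scaling, and upper quartile scaling gave 1272 higher and 1091 lower in ON against WT, where TMM gave 1527 and 815.

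The labels do not say that the replicate numbers pair libraries, and deviations of same-numbered libraries correlated at -0.51 (OFF and ON), -0.38 (OFF and WT) and 0.19 (ON and WT) over 8737 genes. With the replicate number as a block, 60, 1441 and 663 genes were called in OFF against ON, ON against WT and OFF against WT, and 0, 2 and 4 of the 7 follicular helper genes. In OFF against ON the block ended the calls of Bcl6 (adjusted p = 0.0753), Il6st (0.0683), Il21 (0.0753), Maf (0.0635) and Tnfrsf4 (0.0757), in ON against WT that of Cd200 (0.0606), and in OFF against WT that of Il6st (0.0728). With the 2 OFF numbers exchanged, a pairing chosen after seeing the data, the counts were 1210, 3754 and 2083 genes, and 4, 4 and 7 of the 7.

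With 2 libraries a group, the calls of Bcl6 and Il6st in OFF against ON rest on adjusted p between 0.02 and 0.03, near the threshold, and the spread between the OFF libraries limits Cxcr5, Cd200 and Pou2af1. When 1 library was left out, the lone library was assumed to vary like the other groups.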

Other observations

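Between OFF and ON, the log2 difference of Il6st between the 2 OFF libraries was -0.21 and that of Bcl6 -0.18 (replicate 1 minus 2), while that of Cxcr5 was -0.93, of Pou2af1 -0.89 and of Cd200 -0.60. The same difference in ON was 0.55 for Bcl6 and -0.50 for Il6ra, and within 0.09 of 0 for Cxcr5, Cd200 and Pou2af1. In WT it was 0.64 for Pou2af1 and within 0.12 of 0 for the other 6 tested genes.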
